A study of Mus musculus with 4 samples.

Results

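The genes described are 10 that mark lipid-associated macrophages, phagocytes that take up and store or export lipid: Apoe, Lpl, Fabp5, Abca1, Trem2, Cd9, Cd63, Gpnmb, Ctsd and Spp1. They were taken by symbol, as 10 of the 31053 mouse features. All are protein-coding, and on mm10 the annotation places Apoe (ENSMUSG00000002985) at chr7:19696109-19699188, Lpl (ENSMUSG00000015568) at chr8:68880491-68907448, Abca1 (ENSMUSG00000015243) at chr4:53030787-53159895 and Trem2 (ENSMUSG00000023992) at chr17:48346401-48354147. Single-cell RNA was counted in 4 mammary tumours grown for 14 days from the HER2-positive mouse line H605 in the mammary pad of FVB/NJ mice, 2 of them wild type (WT) and 2 lacking Il1a (Il1a-/-). All were aged 6 to 8 weeks by the labels, which list no drug treatment. The deletion is in the whole host, whereas the injected tumour line is the same in every mouse. Each tumour is 1 library and 1 replicate, nothing in the labels tells how far the hosts shared litters, and the text of the labels says that 2 pairs were collected on different days without giving the day of each tumour.

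Lipid-associated macrophages clear lipoproteins, membrane debris and dying cells. TREM2 is a lipid-sensing surface receptor that signals through the adaptor TYROBP, and the programme around it pairs lipid uptake and binding with lysosomal breakdown and with export of cholesterol through ABCA1 onto apolipoprotein E. Such cells are known from adipose tissue, atherosclerotic plaques and tumours, where they arise mainly from recruited monocytes.

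All libraries together held 23464120 and 29001333 UMIs (unique molecular identifiers, 1 per captured transcript) in WT and 6705368 and 15298532 in Il1a-/- tumours, and gave 3130 to 3865 cells each. A level is given as CPM, the UMIs of a gene per 1000000 mouse UMIs of the summed cells, so intervals and floors cover counting error only. Il1a had 64 and 109 UMIs in the WT libraries and 1 and 0 in the Il1a-/- libraries. Between 0 and 5 cell barcodes were shared by any pair of libraries, against 1.49 to 2.19 if barcodes were drawn at random. Cells were named from marker genes, and 393 and 699 phagocyte-like cells were found in WT and 166 and 401 in Il1a-/- tumours. All 15 phagocyte markers had UMIs in these cells in every library, among them Lyz2 at 4040.3 to 7173 CPM and Csf1r at 339.9 to 546 CPM. Sub-clusters 5 and 7 of these cells came almost entirely from 1 library each, with 119 of 142 cells from Il1a-/- replicate 2 and 79 of 81 cells from WT replicate 1. Most member differences in phagocytes are given with and without them. Those that involve monocytes, or that compare genotype differences between phagocyte types, are given mainly with them.

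In phagocyte-like cells with at least 1000 UMIs, each thinned to 1000, types were gated on genes outside the list. A C1q-high macrophage had at least 3 UMIs of the complement genes C1qa, C1qb and C1qc, and a Ly6c2 monocyte had at least 1 UMI of Ly6c2 and fell in no earlier gate; the others were gated on the interferon-induced chemokines Cxcl9 and Cxcl10, on Arg1, or on nothing. C1q-high macrophages numbered 183 and 281 in WT and 30 and 80 in Il1a-/- tumours. All other gated phagocytes, called C1q-low here, numbered 163 and 289 in WT and 100 and 280 in Il1a-/- tumours. Of the gated cells, 5.76% lay at 2 or 3 C1q UMIs, next to the boundary.

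Promoter sequences were examined for the members. RefSeq windows (GRCm38.p6) were found for 8 of the 10 genes, and the 250 bases before each start were searched on both strands for the E-box CACGTG, its palindromic extension TCACGTGA, which is known as the core of the lysosomal gene element bound by TFEB and TFE3, the M-box TCATGTG, the AP-1 site TGANTCA, the direct repeat bound by liver X receptors and the PU.1 site GAGGAAGT. Any TCACGTGA is also counted as CACGTG. The motifs were chosen after the levels were seen. The stretches of Ctsd and Abca1 with an E-box are shown because both genes belong to the lysosome and lipid export side of the programme; both genes lie on the minus strand, each stretch reads 5′ to 3′ along the gene, and the capitals mark the motif.
Ctsd, chr7:142387889-142387956: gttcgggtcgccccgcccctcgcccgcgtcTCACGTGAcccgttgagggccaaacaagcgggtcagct
Abca1, chr4:53160007-53160072: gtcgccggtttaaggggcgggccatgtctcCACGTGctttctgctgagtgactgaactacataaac
Ctsd has another E-box, not shown, that begins 245 bases before its start. The palindrome of Ctsd begins 99 bases before its start and the E-box of Abca1 begins 147 bases before its start. The palindrome occurs in 0.785% and the E-box in 6.02% of 32851 mouse promoter windows of that length. The window of Trem2 matched TGANTCA as TGAATCA, with A as the free middle base, and 6.75% of all windows match TGANTCA. Whether this match is an AP-1 site was not tested. The PU.1 letters were found in 1 of the 2 windows of Spp1 and in 2.44% of all windows. No member window held the M-box or the exact liver X receptor repeat that was searched for. The M-box occurs in 3.25% and this exact repeat in 0.0152% of all windows. With shares this low, absence from 11 member windows was likely for either motif, so nothing is concluded from it. Whether the members have liver X receptor sites in another form or place was not tested.

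Phagocyte-like cells held nearly all UMIs of Apoe and Trem2 but only a part of those of the other members. The cell classes were named from clusters made with the members included, and Apoe was among the leading genes of a phagocyte-like cluster. The shares by class are therefore a description and test nothing. Of the Trem2 UMIs in called cells, WT phagocyte-like cells held 98.1% and 97.2%, and those of Il1a-/- hosts 85.7% and 97.1%. For Apoe the shares were 94.4% and 96.6% in WT and 74.3% and 95.7% in the tumours of Il1a-/- hosts. Lpl, the lipase that frees fatty acids from lipoproteins, was mainly a fibroblast gene in these tumours, with 86.0%, 63.6%, 96.7% and 85.0% of its UMIs in fibroblast-like cells of WT replicates 1 and 2 and Il1a-/- replicates 1 and 2. Gpnmb, a glycoprotein of melanosomes and lysosomes, had 195 UMIs in all, and fibroblast-like cells held 93.5%, 44.4%, 82.4% and 64.2% of them in the same order. Spp1, which encodes the secreted matrix protein osteopontin, lay in phagocyte-like cells to 2.87% and 11.9% in WT tumours, where tumour epithelial-like cells held 86.5% and 68.6%. In Il1a-/- replicate 2, in which no tumour epithelial-like cell was called, phagocyte-like cells held 82.0% of Spp1. Cd9, a tetraspanin of the cell surface, also lay mostly in tumour epithelial-like cells of WT tumours, which held 75.4% and 71.2%. Ctsd, the aspartic protease of the lysosome, was spread more widely, and T/NK-like cells, the most numerous class, held 48.8%, 48.8%, 78.9% and 64.0% of its UMIs. In a whole tumour, fewer cells of a type and less RNA per cell cannot be told apart, so the members are followed below within named cells.

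**Figure D1:**
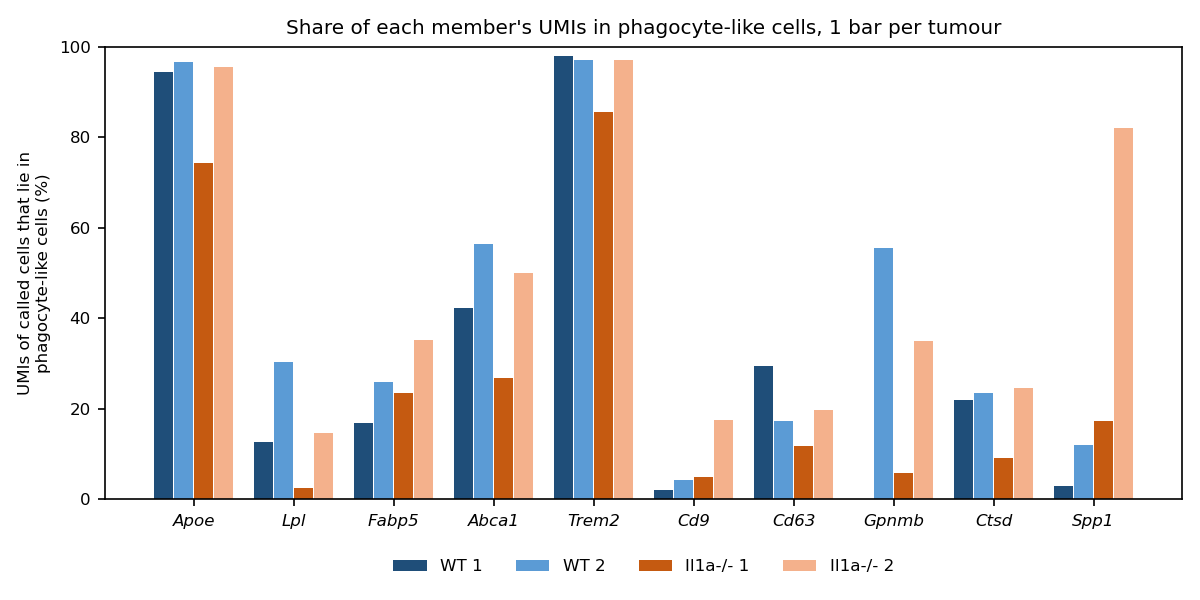
Percent of each member's UMIs in called cells (y axis) that lie in phagocyte-like cells, with 1 bar per tumour. The classes come from clusters made with the members included. Trem2 and Apoe stand at 74.3% or more in every tumour, and Spp1 ranges from 2.87% to 82.0%.

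Levels per cell class showed the same separation. Lpl stood at 1572 and 1045 CPM in WT and 1628 and 1361 CPM in Il1a-/- fibroblast-like cells, above its 238, 249, 104 and 238 CPM in phagocyte-like cells of the same tumours. The fibroblast levels of the genotypes overlapped. Cd63, a tetraspanin of lysosomes and exosomes, was measured at 814, 1496, 616 and 1179.5 CPM in fibroblast-like cells and at 610.2, 475, 233 and 354 CPM in phagocyte-like cells, so it was higher in the fibroblast-like cells of each tumour. Tumour epithelial-like cells had Spp1 at 4553 and 5797 CPM in WT and 1316 CPM in Il1a-/- replicate 1, the last from 23 cells. Cd9 was 1249 and 1283 CPM there, against 83.0 and 86.9 CPM in WT phagocyte-like cells. Conventional dendritic-like cells held Cd9 at 307 and 245 CPM in WT and 356 and 543 CPM in Il1a-/- tumours, with Apoe at 0 to 48.7 CPM. Trem2 had no UMI in fibroblast-like cells of any tumour, where 3 UMIs would be 1.52 to 3.43 CPM.

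Free RNA, measured in barcodes with at most 100 UMIs, gave a background for these levels. Apoe made up 1630.2 and 1754 CPM of it in WT and 644 and 1298 CPM in Il1a-/- libraries. T/NK-like cells, which should lack Apoe, held 27.0, 19.4, 7.90 and 11 CPM in the same order, which is 1.65%, 1.11%, 1.23% and 0.848% of the free RNA level. After thinning to 1000 UMIs, 78.3% and 70.2% of phagocyte-like cells in WT and 50.8% and 47.2% in Il1a-/- tumours had an Apoe UMI, against 2.29%, 2.50%, 0.710% and 1.03% of T/NK-like cells. Without thinning these shares of phagocyte-like cells were 86.7%, 83.2%, 63.1% and 68.3%, at median depths of 3835, 4132, 1697 and 3521 UMIs per cell, and T/NK-like cells had medians of 2822, 4056.5, 1238.5 and 2690 UMIs. Thinning left out 47, 129, 36 and 41 shallower phagocyte-like cells. Trem2 was detected in 13.9%, 16.5%, 4.62% and 12.8% of thinned phagocyte-like cells (43.1%, 49.3%, 10.0% and 38.6% unthinned) and in at most 0.179% of thinned T/NK-like cells. Both genes were thus far above the share seen in lymphocytes in all 4 tumours, and Il1a-/- replicate 1, the shallowest library, had the lowest Trem2 share. As the members were included in the clustering that gave these classes, the contrast is a description.

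Among phagocytes, the question was which type carries each member. In C1q-high macrophages 6 members were higher and 1 was lower than in C1q-low phagocytes of the same tumours. The test was edgeR's quasi-likelihood test on counts summed per tumour and type, with the tumour as a block and Benjamini-Hochberg adjustment over 7170 genes, and 9 of the 10 members passed its filter on low counts. Of all genes tested, 12.7% were called, 6.57% as higher and 6.09% as lower. The median log2 difference was 1.11 over the 9 members and -0.01 over all genes.

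**Figure D2:**
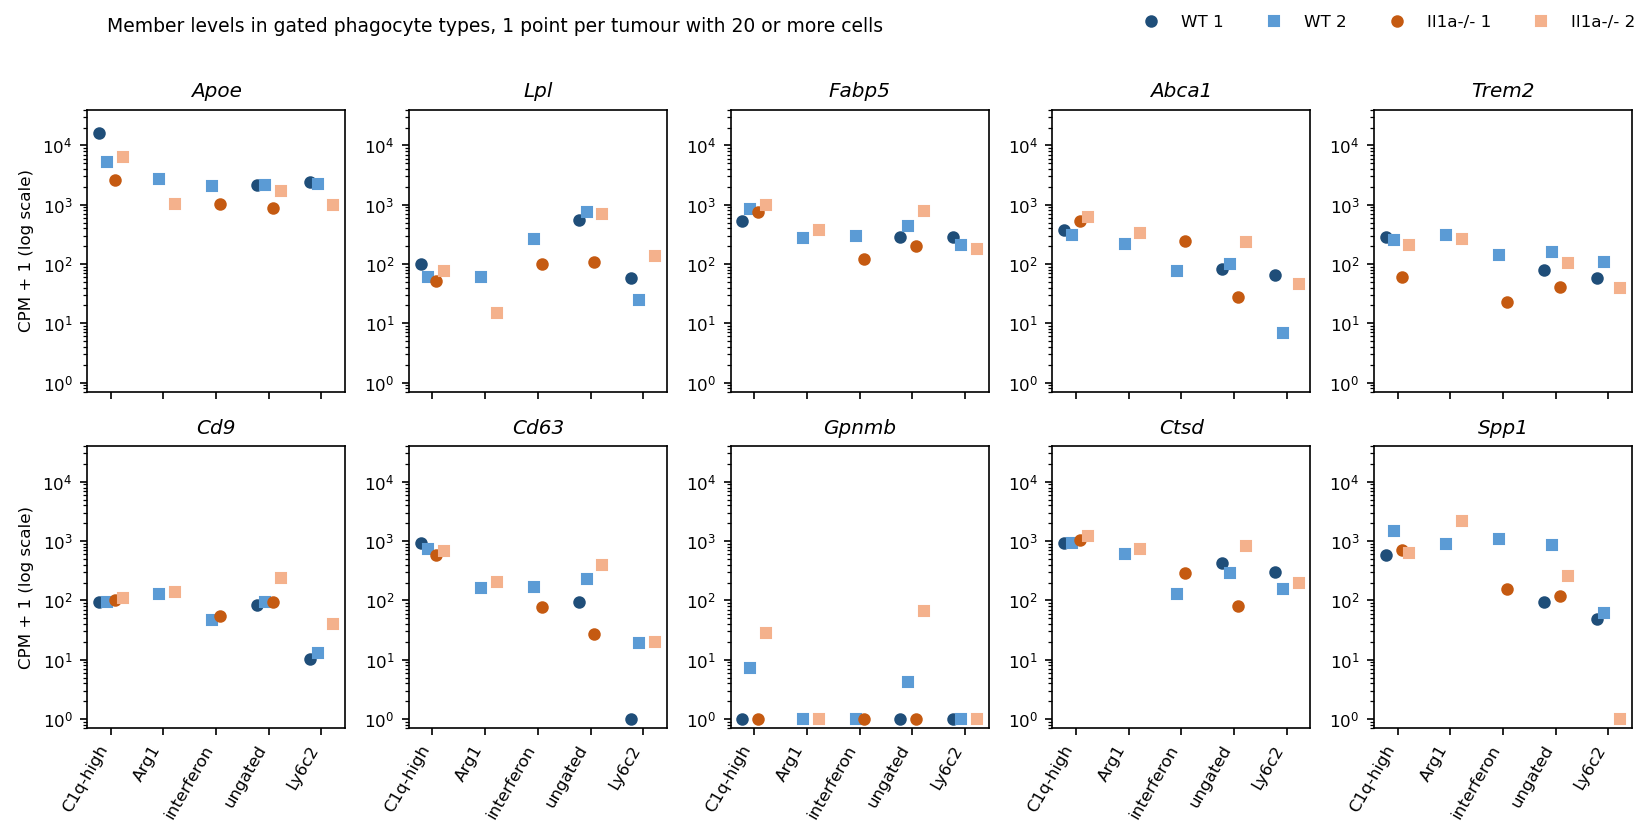
Level of each member (CPM + 1, log scale) in 5 gated phagocyte types, with 1 point per tumour for sums of at least 20 cells. Cd63, Abca1 and Ctsd are highest in C1q-high macrophages of each tumour shown, and Lpl is highest in ungated phagocytes.

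The lipid carriers and handlers came first. Apoe, the apolipoprotein that accepts exported cholesterol, was at 16351 and 5351 CPM in WT and 2560.1 and 6339 CPM in Il1a-/- C1q-high macrophages, and at 2387, 2253, 1087 and 1249.5 CPM in C1q-low phagocytes. All 4 C1q-high values lay above all 4 C1q-low values, WT replicate 1 being far above the others. The log2 difference was 1.93 (SE 0.22, edgeR adjusted p = 2.31e-05, higher in 4 of 4 tumours). Without sub-cluster 7, which held 63.5% of the Apoe UMIs of C1q-high macrophages in WT replicate 1, the level there was 11733 CPM. Abca1, the cholesterol exporter, was at 369, 311, 540.0 and 621 CPM in C1q-high and 90.0, 104, 199 and 253 CPM in C1q-low cells. These did not overlap either, and the log2 difference was 1.59 (SE 0.16, edgeR adjusted p = 6.34e-06). Fabp5, a cytosolic fatty acid chaperone, was at 528, 837, 760.0 and 990.5 CPM in C1q-high and 429.7, 358, 154 and 483 CPM in C1q-low cells, a log2 difference of 1.11 (SE 0.20, edgeR adjusted p = 0.00162). Fabp5, Cd9 and Cd63 have named copies in the genome (Fabp5l2, Cd9-ps, Cd63-ps), and reads that fit a copy as well could have been lost or split.

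Lpl went the other way. It was at 97.3 and 59.2 CPM in WT and 50 and 75.7 CPM in Il1a-/- C1q-high macrophages, and at 459.7, 465, 136 and 294 CPM in C1q-low phagocytes. It was lower in C1q-high cells of every tumour, by -2.35 on the log2 scale (SE 0.19, edgeR adjusted p = 6.56e-07). Sub-cluster 8, in which 51 of 66 cells were C1q-low, held 64.1%, 32.4%, 56.7% and 23.9% of the C1q-low Lpl UMIs in WT replicates 1 and 2 and Il1a-/- replicates 1 and 2. Without it, C1q-low levels were 211, 338, 65.0 and 238 CPM. When types were assigned by sub-cluster in place of single cells, the difference was -0.49 and was not called (edgeR adjusted p = 0.670).

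The receptor and the surface proteins differed among themselves. Trem2 was at 289, 254, 60 and 209 CPM in C1q-high and 88.7, 175, 45.3 and 167 CPM in C1q-low cells, so the ranges overlapped although each tumour had more in C1q-high cells. Its log2 difference of 0.83 (SE 0.21, edgeR adjusted p = 0.0166) was called, but it was not called in 5 of 11 alternatives, with adjusted p up to 0.134. Cd63 was at 945, 729, 570.0 and 669 CPM in C1q-high and 88.7, 188, 81.5 and 242 CPM in C1q-low cells. With no overlap, its log2 difference was 2.32 (SE 0.25, edgeR adjusted p = 1.43e-05). Cd9 was nearly level, at 92.1, 93.5, 100 and 110.1 CPM in C1q-high and 68.2, 82.5, 63.4 and 154 CPM in C1q-low cells, and was not called (log2 difference 0.12, SE 0.19, edgeR adjusted p = 0.762).

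Of the lysosomal and secreted members, Ctsd was at 913, 919, 1030.1 and 1195 CPM in C1q-high and 447, 299.5, 254 and 678 CPM in C1q-low cells. The ranges were apart, and the log2 difference was 1.33 (SE 0.17, edgeR adjusted p = 9.09e-05). Spp1 was at 570.1, 1493, 710.0 and 617 CPM in C1q-high and 92.8, 823, 136 and 1122 CPM in C1q-low cells. It was higher in C1q-high cells in 3 tumours and lower in Il1a-/- replicate 2, and was not called (log2 difference 1.10, SE 0.40, edgeR adjusted p = 0.0895), though 5 of 11 alternatives called it, among them leaving out Il1a-/- replicate 2, which gave 1.81. Gpnmb did not pass the filter: C1q-high macrophages held it at 0 and 6.34 CPM in WT and 0 and 27.5 CPM in Il1a-/- tumours. Without the sub-clusters drawn over 80% from 1 library the differences between C1q-high and C1q-low cells were 1.08 for Spp1 (edgeR adjusted p = 0.0429, now called), 1.75 for Apoe, 1.81 for Abca1, 2.11 for Cd63, 1.55 for Ctsd, 1.01 for Fabp5, 0.83 for Trem2, 0.088 for Cd9 and -2.37 for Lpl.

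Against Ly6c2 monocytes 8 members were higher in C1q-high macrophages. This comparison used 3 tumours, because Il1a-/- replicate 1 had 16 Ly6c2 monocytes, under the minimum of 20. Of 4185 genes, 18.2% were called, 8.98% as higher and 9.18% as lower in C1q-high macrophages, and 8 of the 9 members tested were among the higher genes. Cd63 was at 0, 17.9 and 19.1 CPM in Ly6c2 monocytes of WT replicates 1 and 2 and Il1a-/- replicate 2, which rests on 0, 3 and 3 UMIs, and its fitted log2 difference was 5.93 (SE 0.39, edgeR adjusted p = 5.25e-06). Spp1 was at 46.7, 59.6 and 0 CPM there, from 5, 10 and 0 UMIs, with a fitted log2 difference of 4.94 (SE 0.41, edgeR adjusted p = 2.07e-05). Abca1 had 7, 1 and 7 UMIs and Cd9 1, 2 and 6 UMIs in these monocytes, with fitted log2 differences of 3.80 (SE 0.37) and 2.45 (SE 0.42). With so few UMIs in monocytes, these 4 genes passed the filter mainly through C1q-high cells, and the size of their differences depends on the fit's prior count, so the count of 8 is no support. Ctsd differed by 2.43 (SE 0.22), Apoe by 2.39 (SE 0.25), Trem2 by 2.04 (SE 0.29) and Fabp5 by 1.96 (SE 0.27) on the log2 scale, with edgeR adjusted p of these 4 and of Abca1 and Cd9 from 4.88e-05 to 0.00261. Lpl differed by 0.36 (SE 0.41, edgeR adjusted p = 0.607). The Cd9 call against Ly6c2 monocytes rests on those few UMIs, and Cd9 was not called against C1q-low phagocytes as a whole.

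**Figure D3:**
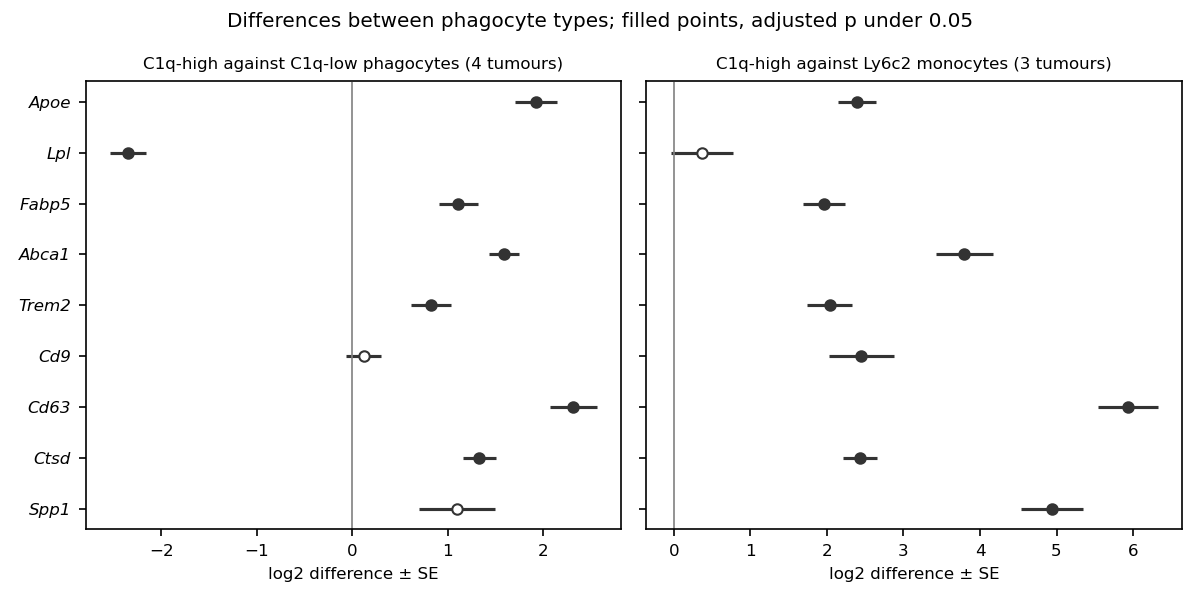
Log2 difference ± SE of each tested member between C1q-high macrophages and C1q-low phagocytes (left, 4 tumours) or Ly6c2 monocytes (right, 3 tumours); filled points have an edgeR adjusted p under 0.05. Lpl lies at -2.35 on the left, and Cd63 lies at 2.32 and 5.93, the highest member in both panels. On the right, the fitted values of Cd63, Spp1, Abca1 and Cd9 rest on few monocyte UMIs.

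Genes of the same pathways were followed in lists that hold none of the members. These lists were also chosen with earlier results of these data known, so their counts are a description. Of all genes tested between C1q-high and C1q-low cells, 12.7% were called, 6.57% as higher and 6.09% as lower. Of 23 lysosomal genes, all tested, 17 were higher in C1q-high than in C1q-low cells and none was lower, with a median log2 difference of 0.73. Among them were Lgmn, the asparagine endopeptidase (1.84, SE 0.13), the cathepsin Ctsb (1.60, SE 0.13) and Grn, the precursor of granulins (1.29, SE 0.13). Of 12 tested genes of cholesterol efflux and liver X receptor targets, 5 were higher and none was lower (median 0.47), including Nr1h3, which encodes liver X receptor alpha (1.28, SE 0.21), and Nceh1, a cholesterol ester hydrolase (1.42, SE 0.19). Of 15 tested genes that also mark lipid-associated macrophages, 5 were higher and 3 lower (median 0.21). Those with the smallest p were higher. They were Pld3 at 1.59 (SE 0.18), the receptor kinase Axl at 1.36 (SE 0.19), the integrin Itgax at 1.23 (SE 0.18) and Vat1 at 1.15 (SE 0.18). Genes of fatty acid uptake and lipid droplets gave no call among 9 tested (median 0.11), with Cd36, a scavenger receptor, at -0.91 (SE 0.39, edgeR adjusted p = 0.151). Of 9 genes that act with or next to Trem2, 2 were higher and 1 lower. Of 9 tested receptors of apolipoprotein E and osteopontin, 2 were higher and 3 lower. The integrins Itga4, Itgb5 and Itga9 stood at -1.87 (SE 0.17), 1.44 (SE 0.21) and 2.05 (SE 0.34). The osteopontin receptor Cd44 was at -0.78 (SE 0.17). Of 10 other tetraspanins 3 were higher and 2 lower, and of 6 tested interferon response genes 3 were lower and none higher.

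A gate on markers of tissue-resident macrophages (at least 1 UMI of Folr2, Cd163, Lyve1, Cbr2 or Timd4) split the C1q-high macrophages further, with 36 and 39 such cells in WT and 2 and 13 in Il1a-/- tumours. No test was made. In WT tumours Abca1 was at 869 and 480.4 CPM with a resident marker and 274 and 293 CPM without, and Ctsd was at 1933 and 1305 CPM with and 719 and 878 CPM without. Cd9 was the reverse, at 21.7 and 32.8 CPM with a resident marker and 106 and 100 CPM without. Spp1 had the same order, with 168 and 535 CPM against 647 and 1595 CPM. Within each WT tumour these 4 genes therefore split the C1q-high macrophages in opposite directions.

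When the phagocyte-like cells were clustered again without the 10 members, 1 small group of 52 cells, sub-cluster 10, had the highest level of 7 of them. Its leading genes apart from the members included Mfge8, a bridge between phagocytes and dying cells, the metalloproteases Mmp12 and Mmp13 and the proton pump subunit Atp6v0d2. The others were the cathepsins Ctsl and Ctsk, and Nos2, Wfs1 and Chil3. It held Spp1 at 3248 CPM against 1412 CPM in the next sub-cluster, Fabp5 at 2022 against 1174, Ctsd at 2275 against 2111, Cd63 at 1368 against 1127, Cd9 at 428 against 183 and Trem2 at 443 against 416 CPM. Gpnmb was at 117 CPM, and 46 of the 58 Gpnmb UMIs of all phagocyte-like cells lay in these 52 cells. Clusters are built from the same cells, so these values describe the group and test nothing.

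**Figure D4:**
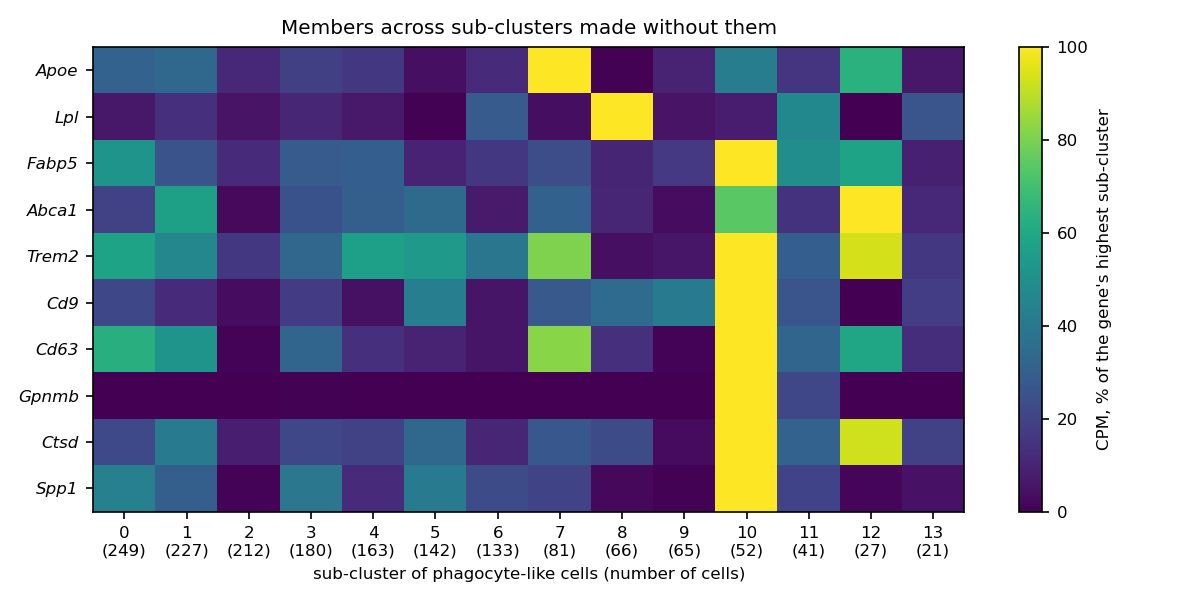
Level of each member (rows) in the 14 sub-clusters of phagocyte-like cells (columns, number of cells in brackets), as percent of that gene's highest sub-cluster. Sub-cluster 10 is the highest for 7 members, sub-cluster 7 for Apoe, sub-cluster 8 for Lpl and sub-cluster 12 for Abca1.

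The 52 cells came from all 4 tumours, with 1 and 16 in WT and 5 and 30 in Il1a-/- hosts. As a share of each tumour's phagocyte-like cells, this was 0.254% (95% Clopper-Pearson interval 0.00644% to 1.41%) and 2.29% (1.31% to 3.69%) in WT, and 3.01% (0.985% to 6.89%) and 7.48% (5.10% to 10.5%) in Il1a-/- hosts. The Il1a-/- shares were above the WT shares, but the intervals of WT replicate 2 and Il1a-/- replicate 1 overlapped, and the shares were not tested between genotypes. In WT replicate 1, where sub-cluster 10 had 1 cell, and among 11 sub-clusters with at least 10 cells, sub-cluster 12 led for Fabp5, Abca1, Trem2 and Ctsd, sub-cluster 7 for Apoe and Cd63 and sub-cluster 8 for Lpl. In WT replicate 2, among 11 sub-clusters with at least 10 cells, sub-cluster 10 was the highest for 6 members (Apoe, Fabp5, Trem2, Cd9, Cd63 and Spp1). In Il1a-/- replicate 2, among 9 such sub-clusters, it was the highest for 8, all except Lpl and Fabp5. Spp1 stood at 2970.4 and 3639.6 CPM in these 2 tumours, and Ctsd at 1214 and 3246 CPM. Gpnmb rested on 3 and 42 UMIs, so it was mainly seen in Il1a-/- replicate 2. Of the 52 cells, 32 were C1q-high and 15 C1q-low by gate. Il1a-/- C1q-high macrophages had 59.2% and 48.4% of their Ctsd UMIs in this sub-cluster, and WT ones 0.571% and 11.1%. Few cells lie behind the Il1a-/- shares, as 27 of 30 and 65 of 80 C1q-high macrophages lay outside the sub-cluster. The median depth of the cells of sub-cluster 10 was 11784.5 UMIs in WT replicate 2 and 4174 in Il1a-/- replicate 2, above the medians of all phagocyte-like cells there.

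The other members had peaks elsewhere. Sub-cluster 7, led by Adamdec1, Cx3cr1 and Tmem119, had Apoe at 20116 CPM and took 20.1% of the phagocyte-like cells of WT replicate 1, 0.286% of WT replicate 2 and 0 of 166 and 0 of 401 in Il1a-/- tumours, with 95% Clopper-Pearson upper bounds of 2.20% and 0.916%. Sub-cluster 12, led by the scavenger receptor Cd163, was made of 19 and 8 WT cells and none from Il1a-/- tumours, and had Abca1 at 831 CPM and Ctsd at 2111 CPM with no UMI of Lpl or Cd9. Sub-cluster 8, with Ccl17 and Aldh1a2 among its leading genes, had Lpl at 1434 CPM and Apoe at only 107 CPM. Among sub-clusters with at least 10 cells it was the highest for Lpl in each of the 3 tumours where it had that many. Sub-cluster 2, with Ly6c2 and Vcan among its leading genes, had Cd63 at 11.2, Cd9 at 13.9 and Abca1 at 19.5 CPM.

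Across 17 sums of a tumour and a gated type with at least 20 cells, Cd63 followed the mean of the other members most closely (Pearson r = 0.90 on log2(CPM + 10)), ahead of Fabp5 (0.85), Ctsd (0.75) and Abca1 (0.74). Lpl did not follow it (r = -0.08). Among 2921 other genes, the most similar to the mean of all members were Colgalt1 (0.90), the coagulation factor F7 (0.89), the lysosomal peptidase Tpp1 (0.88), Plxdc2 (0.85), Vat1 (0.85), Pea15a (0.85), the chemokine Ccl8 (0.84) and Anxa3 (0.83). The 17 points share tumours, libraries and depth, so these values are descriptions.

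The second question was whether the members differ between host genotypes. In phagocyte-like cells 9 members were tested and none was called in edgeR's quasi-likelihood test over 8944 genes, of which 0.101% were called, 0.0894% as higher and 0.0112% as lower in Il1a-/- hosts, and 1239 had an unadjusted p under 0.05. At that unadjusted level were 2 members. Of the 9, 3 had a positive and 6 a negative log2 difference between Il1a-/- and WT hosts (median -0.20, against -0.02 over all genes). With 2 tumours per genotype, values can easily lie apart without any difference between genotypes. The share of all genes without overlap was not counted, so a lack of overlap between genotypes is only a description here and below.

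Apoe stood furthest from 0. Its level was 10875 and 3885 CPM in WT and 1588 and 2534 CPM in Il1a-/- phagocyte-like cells. Both Il1a-/- values lay below both WT values, and WT replicate 1 lay far above the rest. C1q-high macrophages, in which Apoe and Cd63 are higher, were 52.9% and 49.3% of gated phagocytes in WT and 23.1% and 22.2% in Il1a-/- tumours, and the part of this mix in the differences was not tested. The log2 difference was -1.78 (SE 0.48, unadjusted p = 0.00647, edgeR adjusted p = 0.192), and DESeq2 gave -1.78 with an adjusted p of 0.00302. Without a filter on low counts it was -1.80 (edgeR adjusted p = 1.13e-09). Leaving out WT replicate 1 gave -0.89 (edgeR adjusted p = 0.726), leaving out WT replicate 2 gave -2.33 (edgeR adjusted p = 0.223), and leaving out the sub-clusters drawn over 80% from 1 library gave -1.01 (edgeR adjusted p = 0.360). Cd63 was at 610.2 and 475 CPM in WT and 233 and 354 CPM in Il1a-/- tumours, also without overlap, at -0.82 (SE 0.28, unadjusted p = 0.0212, edgeR adjusted p = 0.271), and at -0.24 without those sub-clusters. Trem2 was at 211, 216, 51.8 and 177 CPM, at -0.72 (SE 0.45, edgeR adjusted p = 0.511), and at -0.16 without Il1a-/- replicate 1. Abca1 was the reverse, at 258 and 212 CPM in WT and 299 and 349 CPM in Il1a-/- tumours, with no overlap and a log2 difference of 0.51 (SE 0.23, edgeR adjusted p = 0.374).

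The other members overlapped between the genotypes. Log2 differences were -0.40 (SE 0.37) for Lpl, -0.20 (SE 0.64) for Spp1, -0.16 (SE 0.33) for Fabp5, 0.05 (SE 0.28) for Ctsd and 0.47 (SE 0.33) for Cd9. Without the sub-clusters drawn over 80% from 1 library, Spp1 was at -0.54, Lpl at -0.19, Fabp5 at 0.086, Cd9 at 0.57, Abca1 at 0.52, Ctsd at 0.11 and Trem2 at -0.72. Spp1 varied as much within as between genotypes, at 382 and 1164 CPM in WT and 293 and 987 CPM in Il1a-/- tumours. Gpnmb was at 0, 4.04, 2.88 and 24.3 CPM, from 0, 15, 1 and 42 UMIs, and was not tested. The markers of other cells moved with the libraries: summed T/NK markers (12 of 12 with UMIs) were 33.4 and 51.7 CPM in WT and 184 and 69.4 CPM in Il1a-/- phagocyte-like cells, summed plasmacytoid dendritic markers (8 of 8) 231 and 219 against 613 and 233 CPM, and summed fibroblast markers (8 of 8) 73.6 and 69.4 against 23.0 and 36.4 CPM. Their part in the member values was not tested.

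**Figure D5:**
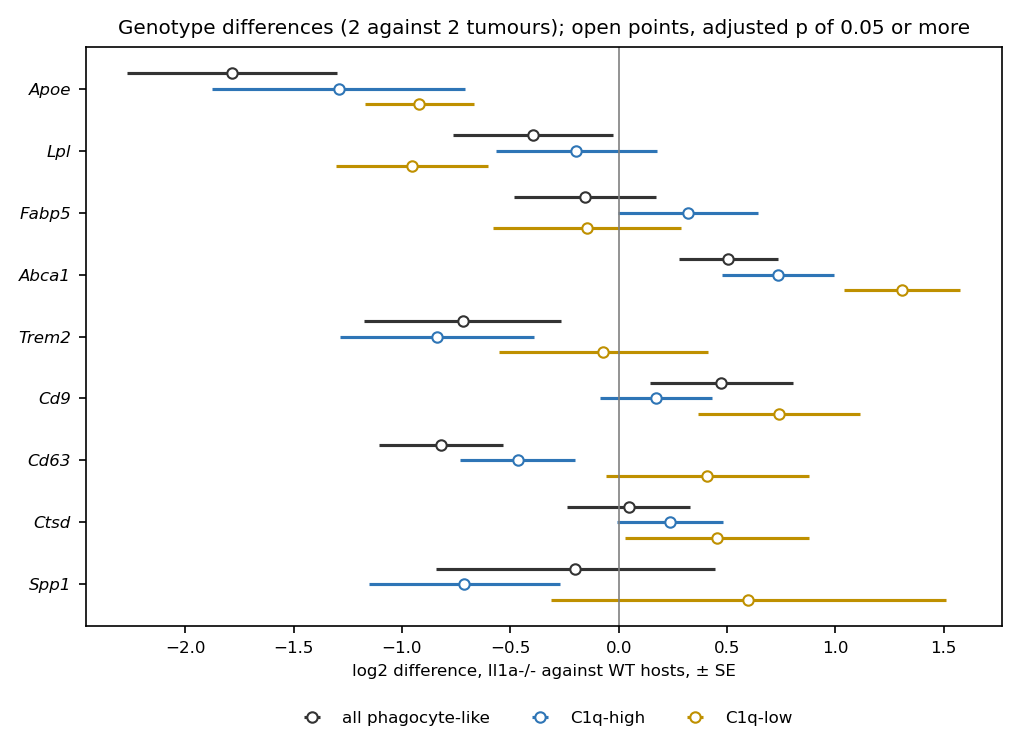
Log2 difference ± SE between Il1a-/- and WT hosts (2 tumours each) for 9 members in all phagocyte-like cells, C1q-high macrophages and C1q-low phagocytes. All points are open, since no edgeR adjusted p is under 0.05, and Apoe lies at -1.78, -1.29 and -0.92.

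In C1q-high and in C1q-low cells no member was called either. In C1q-high macrophages none of 6988 genes was called by edgeR (0%), with 780 at an unadjusted p under 0.05, and DESeq2 called 43. Abca1, whose values are given above, was higher in both Il1a-/- tumours, by 0.74 (SE 0.26, unadjusted p = 0.0226, edgeR adjusted p = 0.374). Apoe overlapped between genotypes at -1.29 (SE 0.58, edgeR adjusted p = 0.462). It was -0.33 without WT replicate 1 and -2.27 without Il1a-/- replicate 2. Trem2 was lower in both Il1a-/- tumours, by -0.84 (SE 0.45, edgeR adjusted p = 0.531), and by -2.38 with adjusted p = 0.0345 when Il1a-/- replicate 2 was left out, which sets 1 shallow tumour with 6 Trem2 UMIs against 2. Ctsd at 0.24, Cd9 at 0.17 and Cd63 at -0.47 had no overlap between genotypes but differed by less than 2 SE. Without sub-cluster 10, Ctsd was at 916 and 893 CPM in WT and 472 and 781 CPM in Il1a-/- C1q-high macrophages, so its direction turned. Fabp5 was then at 528 and 785 CPM in WT and 404 and 784 CPM in Il1a-/- tumours. Sub-cluster 10 was singled out for its high levels of these genes and holds few of these cells, so the values without it are a description. Fabp5 at 0.32, Lpl at -0.20 and Spp1 at -0.71 overlapped. Without the sub-clusters drawn over 80% from 1 library the differences were 0.54 for Abca1, -0.87 for Apoe, -0.71 for Trem2, 0.12 for Ctsd, 0.57 for Cd9, -0.26 for Cd63, 0.30 for Fabp5, -0.35 for Lpl and -0.80 for Spp1.

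In C1q-low phagocytes, a comparison added after the data were seen, 3 of 7388 genes were called (0.0406%, with 0.0271% higher and 0.0135% lower in Il1a-/- hosts) and no member was among them. Abca1 was at 90.0 and 104 CPM in WT and 199 and 253 CPM in Il1a-/- tumours, a log2 difference of 1.31 (SE 0.27, unadjusted p = 6.51e-04, edgeR adjusted p = 0.156). Over the 12 alternatives its adjusted p ranged from 0.00335 to 0.693, and with the replicate number as a block it was 0.0452. Apoe differed by -0.92 (SE 0.25, edgeR adjusted p = 0.226) and Lpl by -0.95 (SE 0.35, edgeR adjusted p = 0.379), both without overlap. Lpl ranged from -1.77 to -0.41 over the alternatives and had an edgeR adjusted p of 0.0497 without the filter on low counts, and without sub-cluster 8 its levels overlapped between genotypes, as given above. Without the sub-clusters drawn over 80% from 1 library, Spp1 was at 0.048, Trem2 at -0.45, Abca1 at 1.18, Apoe at -0.66, Lpl at -0.41, Fabp5 at 0.22, Cd63 at 0.81, Ctsd at 0.52 and Cd9 at 0.63. The remaining 6 tested members overlapped, at -0.15 for Fabp5, -0.07 for Trem2, 0.41 for Cd63, 0.45 for Ctsd, 0.60 for Spp1 and 0.74 for Cd9. The mix of C1q-low cells differed between tumours: Arg1-gated cells were 5, 46, 7 and 124 and interferon-gated cells 3, 52, 42 and 14 in the order of WT and Il1a-/- replicates. What this mix contributes to the C1q-low values was not tested. A test of whether the genotype difference itself differs between C1q-high and C1q-low cells called 1 of 8070 genes (0.0124%) and no member, with edgeR adjusted p from 0.981 to 0.998 for the 10 members. The log2 difference of differences was -1.64 for Gpnmb, -1.41 for Spp1, -0.81 for Cd63, -0.78 for Trem2, -0.62 for Cd9, -0.52 for Abca1, -0.26 for Apoe, -0.12 for Ctsd, 0.63 for Fabp5 and 0.68 for Lpl. Leaving out WT replicate 2 gave a call for Spp1 (-2.35, edgeR adjusted p = 0.0120) and Apoe (-1.07, edgeR adjusted p = 0.0333), and Spp1 was also called with no filter on low counts (-1.52).

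In Ly6c2 monocytes the planned test was not run because of the 16 cells of Il1a-/- replicate 1. With a minimum of 15 cells, chosen after the data were seen, 13 of 2293 genes were called (0.567%, with 0.349% higher and 0.218% lower), and Apoe was one of the 5 lower genes among 4 members tested. Apoe was at 2454 and 2213 CPM in WT and 808 and 1001 CPM in Il1a-/- monocytes, so the genotypes were apart, with a log2 difference of -1.37 (SE 0.26, edgeR adjusted p = 0.0272). Without Il1a-/- replicate 1 it was -1.22 (SE 0.32, edgeR adjusted p = 0.0170), in a test that called 0.911% of 3293 genes, 0.668% as higher and 0.243% as lower, and that assumes that the single Il1a-/- tumour varies like the others. Apoe was also lower in the free RNA of the Il1a-/- libraries (644 and 1298 CPM) than of the WT libraries (1630.2 and 1754 CPM). These are levels within free RNA, not the amount that free RNA adds to a cell. T/NK-like cells held Apoe at 27.0 and 19.4 CPM in WT and 7.90 and 11 CPM in Il1a-/- tumours. The part of free RNA in the monocyte values was not tested. Lpl had the reverse order, at 56.0 and 23.9 CPM in WT and 389 and 134 CPM in Il1a-/- monocytes, and did not pass (2.37, SE 0.63, edgeR adjusted p = 0.145). Fabp5 was at -0.56 (SE 0.40, edgeR adjusted p = 0.760) and Ctsd at 0.17 (SE 0.45, edgeR adjusted p = 0.952) in the same test, and the other 6 members did not pass its filter.

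Outside phagocytes, fibroblast-like cells gave no call among 9679 genes (0%) with edgeR, 477 having an unadjusted p under 0.05, and DESeq2 called 11. Lpl differed by 0.20 (SE 0.33, edgeR adjusted p = 0.948) and Cd63 by -0.35 (SE 0.48, edgeR adjusted p = 0.929) there. Apoe at -1.11 (SE 0.99), Fabp5 at -1.19 (SE 0.76), Cd9 at -0.29 (SE 0.55), Ctsd at 0.037 (SE 0.31) and Abca1 at 0.37 (SE 0.28) did not pass either, and Trem2 and Spp1 were not tested. Gpnmb was at 14.7 and 6.45 CPM in WT and 16.0 and 43.6 CPM in Il1a-/- fibroblast-like cells, without overlap, and was not called (1.56, SE 0.60, edgeR adjusted p = 0.884), except with no filter on low counts (edgeR adjusted p = 0.0108). In T/NK-like cells 5.02% of 11073 genes were called, 3.04% as higher and 1.98% as lower in Il1a-/- hosts, and 2 of the 8 members tested were among the lower genes. The T/NK-like class was not made of the same clusters in both genotypes: a CD8 T cell cluster led by Cd8b1 had 10 and 28 cells in WT and 814 and 525 in Il1a-/- tumours, and a cluster led by Xcl1 and Ncr1 had 404 and 489 against 35 and 0. The part of this mix in the calls was not tested. Cd9 fell from 107 and 79.6 CPM in WT to 58.1 and 44.6 CPM in Il1a-/- tumours, by 0.84 on the log2 scale (SE 0.19, edgeR adjusted p = 0.0491), with no overlap. Apoe was called lower by -1.20 (SE 0.24, edgeR adjusted p = 0.0372), at the 7.90 to 27.0 CPM given above, where free RNA was also lower in the Il1a-/- libraries; the part of free RNA was not tested. Both calls were lost when either WT replicate was left out, with edgeR adjusted p of 0.209 and 0.0980 for Cd9 and 0.164 and 0.0805 for Apoe. Ctsd was at 398, 408, 427 and 431 CPM in the T/NK-like cells of the 4 tumours and was not called (edgeR adjusted p = 0.663). Spp1 at -1.61 (SE 0.59, edgeR adjusted p = 0.145) was called in 4 of 10 alternatives. Abca1 at 0.52 (SE 0.21), Cd63 at -0.43 (SE 0.39), Lpl at 0.20 (SE 1.04) and Fabp5 at -0.011 (SE 0.41) were not called, although Fabp5 was at -1.06 (edgeR adjusted p = 0.00103) without Il1a-/- replicate 2, and Trem2 and Gpnmb were not tested.

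The pathway lists gave few calls between genotypes. In phagocyte-like cells no gene was called among 23 lysosomal, 13 cholesterol efflux, 13 fatty acid and droplet, 10 receptor and 15 other lipid-associated macrophage genes tested. Their median log2 differences were -0.14, 0.03, 0.66, 0.40 and 0.17. Closest to a call were Dgat1, which makes triglycerides (1.63, SE 0.27, edgeR adjusted p = 0.0734), and the cathepsin Ctsl (2.17, SE 0.47, edgeR adjusted p = 0.129). Of 10 tested interferon response genes, Rsad2 rose (3.52, SE 0.42, edgeR adjusted p = 0.0473), and the median was 1.24. In T/NK-like cells 2 of 12 tested fatty acid and droplet genes rose, Dgat1 by 1.82 (SE 0.23) and the lipid droplet gene Hilpda by 1.17 (SE 0.21), and Mgll, a monoacylglycerol lipase, fell (-2.37, SE 0.39), all with edgeR adjusted p from 0.0121 to 0.0281. Of 11 tested interferon response genes, 6 rose in T/NK-like cells.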

How the data were processed

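Droplet libraries (10x 3' chemistry) of 2 WT and 2 Il1a-/- tumours were analysed. The authors deposited unfiltered UMI counts per gene and barcode, made with Cell Ranger 3.1.0 and mm10 per the submitters' processing notes. The file headers show a combined human and mouse reference, of which the mouse features were used.

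Barcodes with at least 500 UMIs, 250 genes and at most 20% mitochondrial UMIs were kept unless they resembled free RNA (false discovery rate 0.001). The cells with the highest Scrublet doublet scores were then removed. Their number was fixed in advance at 0.8% per 1000 cells, which gave 83 to 127 per library. Sub-cluster 13 of the phagocyte-like cells (21 cells), with Cd3d and Trbc2 among its leading genes, was kept. Whether it holds doublets was not tested. Cells were clustered with scanpy 1.11.5 (2000 variable genes, 30 components, Leiden resolution 1). The members were not left out of the clustering that gave the classes, but were left out for the sub-clusters of phagocyte-like cells. A cluster was named for a class only with at least 3 detected markers of it, a rule set after the clusters were seen. Single phagocytes were gated on counts thinned to 1000 UMIs, with at least 3 C1q, 2 Cxcl9 and Cxcl10, 2 Arg1 or 1 Ly6c2 UMIs, in the order C1q, interferon, Arg1, Ly6c2.

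Counts were summed per tumour and type with at least 20 cells and tested with edgeR 4.0.16 (R 4.3.3; filterByExpr, TMM, quasi-likelihood, Benjamini-Hochberg, threshold 0.05). TMM factors were 0.936 to 1.08. Levels are plain CPM without TMM, and log2 differences come from the fits. DESeq2 1.42.0 was an alternative, beside other scaling, no filter, other gates, left-out replicates and a replicate block. The labels say that 2 pairs were collected on separate days but tie no number to a day, so the numbers were not taken to pair the tumours. P-values measure only the spread between these tumours, 2 per genotype. Per tumour, total UMIs ranged from 6705368 to 29001333.

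All members tested are named in every comparison. Of each pathway list at most 4 called genes with the smallest p are named, or else the 2 with the smallest p, and the 8 most similar genes had a mean of at least 50 CPM. Members and lists were chosen with earlier results of these data known, and the comparisons between C1q-high and C1q-low cells were added after the data were seen. On simulated data of the real means, a log2 change of 2 was recovered for 78 of 92 genes in phagocyte-like cells (of 7564). It was recovered for 84 of 102 in C1q-high macrophages (of 4995) and 99 of 99 between C1q-high and C1q-low cells (of 4719). False calls were 6, 3 and 5 in the same order. The simulation used a single dispersion for all genes, with an upper limit, so it left out spread particular to a gene. Whether it had as much spread between tumours as the real data was not tested. These shares are therefore not given as the power of the real comparisons.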

Additional observations from a re-analysis of the deposited data

How the results depend on the processing

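Of 758 log2 differences of members under alternatives, 664 kept their direction and their side of the threshold, 24 newly passed it, 10 no longer did and 60 changed sign. Counts of called genes moved more, and the cause was not tested. With no filter on low counts, calls between genotypes were 545 in phagocyte-like cells, 216 in C1q-high macrophages, 252 in C1q-low phagocytes, 134 in fibroblast-like and 1746 in T/NK-like cells, and 32 for the interaction of type and genotype. DESeq2 called 110, 43, 15 and 11 genes in the first 4 of these, 533 between C1q-high and C1q-low cells and 440 between C1q-high cells and Ly6c2 monocytes. Other size factors (RLE) gave 21 in phagocyte-like cells. A C1q gate at 5 UMIs gave 1 call in C1q-high macrophages and 2 for the interaction, a gate at 2 UMIs gave 5 in C1q-low phagocytes, and a gate on sub-clusters gave 1 and 2 in C1q-high macrophages and the interaction. Without sub-clusters over 80% from 1 library the calls were 1 in C1q-high, 1 in C1q-low and 3 for the interaction. In Ly6c2 monocytes, 13 genes were called with a minimum of 15 cells and 30 without Il1a-/- replicate 1.

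Leaving out 1 replicate at a time gave 0 to 196 calls in phagocyte-like cells, 0 to 153 in C1q-high, 0 to 190 in C1q-low, 0 to 1 in fibroblast-like and 72 to 1358 in T/NK-like cells, 0 to 44 for the interaction, 424 to 866 between C1q-high and C1q-low cells and 439 to 778 against Ly6c2 monocytes. Members whose sign changed had these ranges. In phagocyte-like cells they were -0.76 to 0.25 for Fabp5, -1.47 to 0.86 for Spp1, -0.30 to 0.86 for Cd9, -0.42 to 0.39 for Ctsd and -1.29 to 0.077 for Lpl. In C1q-high macrophages they were -0.060 to 0.71 for Fabp5, -1.28 to 0.17 for Spp1, -0.10 to 0.26 for Cd9, -0.039 to 0.40 for Ctsd and -0.83 to 0.12 for Lpl. In C1q-low phagocytes they were -1.36 to 0.42 for Fabp5, -1.78 to 2.92 for Spp1, -0.27 to 1.15 for Cd9, -0.56 to 0.99 for Ctsd, -0.80 to 1.07 for Cd63 and -1.58 to 0.53 for Trem2. In fibroblast-like cells they were -0.95 to 0.18 for Cd63, -0.051 to 0.49 for Lpl, -2.31 to 0.97 for Apoe, -1.38 to 0.32 for Cd9 and -0.33 to 0.32 for Ctsd. In T/NK-like cells they were -1.06 to 0.56 for Fabp5, -0.81 to 0.16 for Cd63 and -1.66 to 1.44 for Lpl. For the interaction they were -2.59 to 0.62 for Spp1, -1.72 to 0.15 for Gpnmb, -0.90 to 0.20 for Cd9, -1.07 to 0.46 for Apoe, -0.64 to 0.52 for Ctsd and -1.60 to 0.042 for Cd63. Ctsd in Ly6c2 monocytes was -0.15 without Il1a-/- replicate 1, and between C1q-high and C1q-low cells -0.0083 to 0.37 for Cd9.

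Other sign changes were 0.086 for Fabp5 in phagocyte-like cells and 0.22 in C1q-low phagocytes without sub-clusters over 80% from 1 library, -0.68 for Cd9 in C1q-high and 0.039 for Fabp5 in C1q-low cells with the gate at 5 UMIs, 1.00 for Lpl in C1q-high and -0.17 for Cd63 in C1q-low cells with the gate on sub-clusters, and -0.13 for Lpl against Ly6c2 monocytes with a minimum of 15 cells. In T/NK-like cells Fabp5 was 0.029 in cells with at least 1000 UMIs, and 0.22 and Lpl -0.20 without clusters led by a marker of another class. For the interaction, Cd9 was 0.45 and Ctsd 0.40 with the gate on sub-clusters, Ctsd 0.015 with the gate at 2 UMIs, and Lpl -0.069 with the gate at 5 UMIs and -0.054 without sub-clusters over 80% from 1 library.

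With the replicate number as a block, 109 genes were called in phagocyte-like cells, 3 in C1q-high, 50 in C1q-low, 0 in fibroblast-like and 1454 in T/NK-like cells, and Ctsd in phagocyte-like cells went to -0.0023. Deviations of tumours with the same number correlated at 0.06 in phagocyte-like, -0.03 in C1q-high, 0.38 in fibroblast-like and 0.28 in T/NK-like cells. Not run were the planned tests of Ly6c2 monocytes between genotypes with all 4 tumours and of their interaction, since Il1a-/- replicate 1 had 16 such cells. The comparison with Ly6c2 monocytes gave no value without Il1a-/- replicate 2. With 2 tumours per genotype and 6 to 42 UMIs behind some values of Trem2 and Gpnmb, small differences were not detectable.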
